A study of Rattus norvegicus with 12 samples.

Results

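Integrins are the receptors that tie a cell to its surrounding matrix, and laminins are the chains of the basement membrane to which many of them bind. The genes described here were chosen by name: every probe set with 1 gene symbol that named an integrin alpha or beta chain or a laminin alpha, beta or gamma chain, with the integrin binding proteins left out. That gave 33 genes of the 14217 with 1 symbol on the array, measured by 49 probe sets. They comprised 4 leukocyte integrins (Itgal, Itgam, Itgax and Itgb2), 18 other integrins, 10 laminins, and Itgbl1, an integrin-beta-like secreted protein that fits the naming pattern but is no integrin. A probe set (several short probes that together read 1 transcript) was tested where its mean was in the upper 60% of all probe sets. This filter passed 34 of the 49 probe sets, for 25 of the 33 genes.

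An integrin is a pair of 1 alpha and 1 beta chain that spans the membrane, with the matrix ligand outside and the actin cytoskeleton, through talin and its partners, inside. A laminin is a trimer of an alpha, a beta and a gamma chain, and in heart muscle the trimers sheathe each cardiomyocyte and each vessel. Cardiomyocytes are known to hold laminin mainly through integrin alpha 7 beta 1 and through dystroglycan, while the leukocyte integrins pair with the beta 2 chain on white blood cells and serve their adhesion to vessel walls.

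The arrays measured RNA of the left ventricle of female Sprague-Dawley rats aged 16 months. In EX the rats had lifelong access to voluntary exercise, in PA they were given 2 weekly sessions of 1 h of activity in a box, and in SED they lived in a standard cage alone; there were 4 arrays in each group. Per the design text, RNA of 4 animals was pooled for every array and a group had 12 animals, too few for the 4 arrays listed in each group, so the animals behind each array are not settled here and the p-values measure the spread between pooled arrays. Values are log2 expression values, and a difference of 1 is a doubling.

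The array medians lay between 5.64 and 5.72. The interquartile range, the spread of the middle values of an array, was 3.89 to 4.04 on the EX arrays. It was 3.93 to 4.03 on the PA arrays and 3.58 to 3.86 on the SED arrays. Every SED array thus had a narrower spread than every EX and PA array, which touches each difference from SED. The array SED 1 stood apart: its mean correlation with the other arrays was 0.938, against 0.977 to 0.981 for the others, and its difference between the 3' and 5' Gapdh control probe sets, a sign of RNA quality, was 1.56, against 0.96 to 1.35. The 7 tested markers of ventricular cardiomyocytes averaged 12.70 to 12.77 on the EX arrays, 12.70 to 12.78 on the PA arrays and 12.74 to 12.82 on the SED arrays. The 4 tested atrial markers averaged 6.70 to 8.97 on the EX arrays, 7.38 to 7.91 on the PA arrays and 7.38 to 8.03 on the SED arrays, with EX 1 and EX 3 the highest. Some of the differences from SED are also given without SED 1, and those given with all arrays alone may depend on it too.

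No integrin or laminin passed the test in any comparison. In EX against SED the largest difference was that of Itga1, the alpha chain of a collagen receptor, at 0.85 (0.60 without SED 1). Taking 1 representative probe set for each gene, the tested one with the highest mean, Itga1 and Itga8 had the smallest p in EX against SED and in PA against SED, and both comparisons share the SED arrays. Itga8 had every SED array under the filter and passed it through EX and PA, so its rank is a description. The laminin chains Lama2, Lamb1 and Lamc1 and the common beta chain Itgb1 had differences from SED between -0.053 and -0.005 in both comparisons on these probe sets. The beta chain Lamb2, which read higher than Lamb1, differed from SED by -0.24 for EX and -0.19 for PA (limma adjusted p = 0.436 and 0.509). Without SED 1 and SED 3, its 2 highest arrays, these differences were -0.073 and -0.028. Lama2 moved to -0.19 for EX and -0.15 for PA without SED 1, and second probe sets gave 0.34 and 0.37 for Lamc1 and 0.18 and 0.13 for Itgb1. Of the leukocyte integrins, Itgb2 was lower in EX than in PA without overlap of the arrays, though it did not pass the test. The closest arrays, EX 2 and PA 3, read 6.11 and 6.12, and SED 4 read below every EX array, at 5.71. It was the 1 such member probe set, 2.94% of those tested beside 1.45% of all probe sets.

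With limma and Benjamini-Hochberg adjustment over all 18626 tested probe sets, 0 of the 34 member probe sets had an adjusted p under 0.05 in EX against SED, in PA against SED, in EX against PA or in the F test over the 3 groups, and the background over the whole table was 0% in each. At an unadjusted p under 0.05, EX against SED had 6 member probe sets higher, 17.6% of those tested beside 9.3% of all probe sets, and 3 lower, 8.82% beside 6.3%. PA against SED had 5 higher, 14.7% beside 9.28%, and 2 lower, 5.88% beside 5.97%. EX against PA had 0 higher and 0 lower, beside 1.43% in each direction over the table. The F test had 6 member probe sets at that level, 17.6% beside 13.4%. Without SED 1 the counts were 3 higher and 1 lower in EX against SED, beside 8.13% and 5.89%, and 4 higher and 1 lower in PA against SED, beside 7.29% and 4.97%. Itga8, which passed the filter only through EX and PA, is in each count of members higher than SED and in that of the F test.

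Groups whose arrays did not overlap were also few. EX lay wholly above SED for 3 member probe sets, 8.82% beside 4.39% of all probe sets, and wholly below for 1, 2.94% beside 3.51%. PA lay wholly above SED for 3, 8.82% beside 4.88%, and below for 0, beside 3.51%. Itga8, tested only because EX and PA read higher, is among those above SED in both comparisons. EX lay above PA for 0, beside 1.33%, and below for 1, 2.94% beside 1.45%.

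Itga1, Itga8 and Itga5 are receptor chains for collagen and for RGD ligands. Itga1 pairs with the beta 1 chain to bind collagen IV and other collagens. It read 8.45, 8.57, 8.58 and 8.42 on the EX arrays, 8.51, 8.08, 8.48 and 8.47 on the PA arrays, and 6.93, 8.13, 7.93 and 7.65 on the SED arrays. The EX arrays all lay above the SED arrays, and among the PA arrays only PA 2 fell within the SED range. The difference from SED was 0.85 ± 0.21 for EX (SE; limma adjusted p = 0.134) and 0.73 ± 0.21 for PA (adjusted p = 0.204), and EX differed from PA by 0.12 (adjusted p = 1). SED 1 was the lowest array by far, and without it the differences were 0.60 for EX and 0.48 for PA (limma adjusted p = 0.141 and 0.231).

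Itga8 encodes the alpha chain of a fibronectin, tenascin and nephronectin receptor of smooth muscle and other mesenchymal cells. It read 4.96, 4.73, 5.21 and 5.50 on the EX arrays, 5.26, 5.26, 5.23 and 5.19 on the PA arrays, and 4.49, 4.63, 4.62 and 4.64 on the SED arrays. All SED arrays lay below all EX and PA arrays. The difference from SED was 0.51 ± 0.14 for EX (SE; limma adjusted p = 0.144) and 0.64 ± 0.14 for PA (adjusted p = 0.164). The mean over all arrays, 4.98, was just above the filter of 4.94, and every SED array was under it, so Itga8 was tested only because EX and PA read higher. The second probe set for Itga8, under the filter, gave differences of -0.13 for EX and -0.15 for PA, so the 2 probe sets differed in sign. Without SED 1 the tested probe set gave 0.47 for EX and 0.61 for PA (limma adjusted p = 0.2 and 0.187). The 3 tested smooth muscle markers averaged 6.53 to 7.20 on the EX arrays, 6.69 to 6.89 on the PA arrays and 6.74 to 6.98 on the SED arrays, and the 5 fibroblast markers 9.67 to 9.81, 9.79 to 9.88 and 9.56 to 9.81 in the same order. In both lists the EX range overlapped that of SED. In tissue RNA such as this, fewer cells of a type and less RNA per cell cannot be told apart.

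Itga5 is the alpha chain of the classical fibronectin receptor. It read 7.03, 7.02, 7.80 and 7.41 on the EX arrays, 7.85, 7.56, 7.23 and 7.95 on the PA arrays, and 7.88, 8.18, 7.44 and 8.15 on the SED arrays. EX 1 and EX 2 were the lowest, EX 3 lay among the SED values, and the groups overlapped. The difference from SED was -0.60 ± 0.22 for EX (SE; limma adjusted p = 0.232) and -0.27 ± 0.22 for PA (adjusted p = 0.572), and EX minus PA was -0.33 ± 0.22 (adjusted p = 1). Itga9, a receptor chain for tenascin and osteopontin, lay between 9.36 and 10.06 over all arrays, with differences from SED of 0.088 for EX and 0.14 for PA, and of 0.18 and 0.24 without SED 1. Its second probe set, under the filter, gave -0.22 and -0.058.

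**Figure D1:**
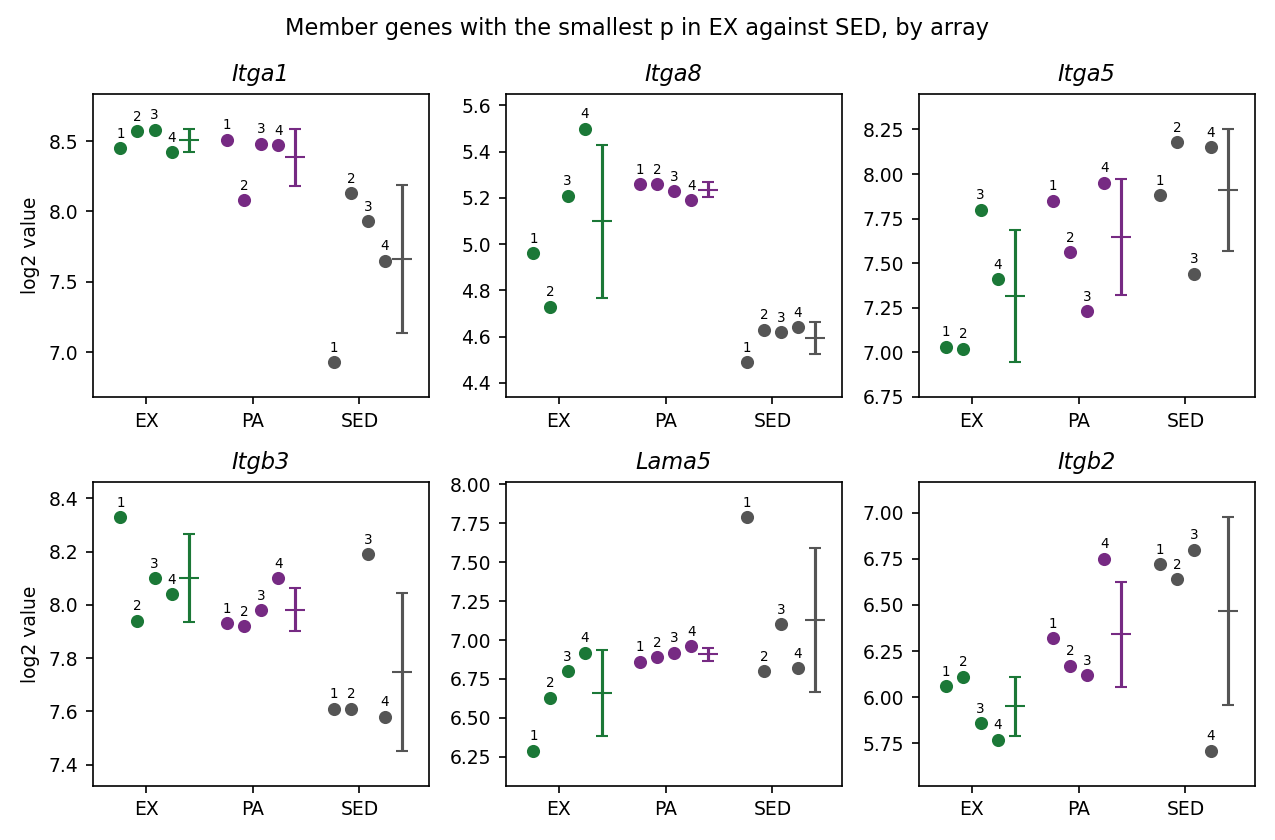
Log2 values by array (numbered points, left to right EX, PA and SED) for the 6 member genes with the smallest p in EX against SED, with a cross bar at the mean and bars of 1 SD; each panel has its own axis. The SED arrays lie below all EX arrays for Itga1 and Itga8, with SED 1 far below the rest for Itga1, while for Itga5, Itgb3, Lama5 and Itgb2 the groups overlap.

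The promoters of Itga1, Itga8 and Itga5 are shown because these 3 integrins had the smallest p in EX against SED among the representative probe sets. RefSeq sequences on the GRCr8 build, from 250 bases before to 50 after the gene's start, were matched for 25 of the 33 genes. They are written 5' to 3' on the strand of the gene, the minus strand in each case, and capitals mark GC boxes (GGGCGG on either strand).
Itga1, chr2:48545234-48545533: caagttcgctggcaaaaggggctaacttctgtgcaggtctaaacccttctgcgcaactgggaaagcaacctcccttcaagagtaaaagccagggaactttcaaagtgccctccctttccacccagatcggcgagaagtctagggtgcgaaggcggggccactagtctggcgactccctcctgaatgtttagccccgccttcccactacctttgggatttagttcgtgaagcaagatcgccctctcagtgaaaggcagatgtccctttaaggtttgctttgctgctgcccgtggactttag
Itga8, chr17:80410584-80410883: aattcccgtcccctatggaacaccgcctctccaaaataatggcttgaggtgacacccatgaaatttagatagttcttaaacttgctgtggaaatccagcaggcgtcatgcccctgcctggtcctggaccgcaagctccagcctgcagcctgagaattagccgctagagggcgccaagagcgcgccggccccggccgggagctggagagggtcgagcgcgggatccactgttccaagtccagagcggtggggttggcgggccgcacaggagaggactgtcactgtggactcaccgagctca
Itga5, chr7:136381256-136381555: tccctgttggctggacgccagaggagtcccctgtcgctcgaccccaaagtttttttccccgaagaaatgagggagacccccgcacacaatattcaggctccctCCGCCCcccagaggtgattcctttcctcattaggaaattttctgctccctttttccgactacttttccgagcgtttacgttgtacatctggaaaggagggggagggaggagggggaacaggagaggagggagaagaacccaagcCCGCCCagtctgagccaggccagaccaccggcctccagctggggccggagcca
The Itga5 window held 2 GC boxes and those of Itga1 and Itga8 held 0. A GC box was found in 14 of the 25 member promoters and in 33.1% of all 33469 promoters of the same length. TATAAA, on either strand, was found in 2 of the 25 and in 14.2% of all, and the CArG box, which serum response factor binds, on either strand in 2 of the 25 and in 1.64% of all. Lama4 held a TATAAA and Lama2 a CArG box; the other TATAAA was in Itgb7 and the other CArG box in Itgb6, both under the filter. A match is only a run of letters in the window and was not tied to any difference between the groups.

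The beta chains and alpha v form most of the remaining matrix receptors. Itgb1, the beta chain shared by the collagen, laminin and fibronectin receptors, read 10.56, 10.54, 10.65 and 10.55 on the EX arrays, 10.58, 10.49, 10.55 and 10.67 on the PA arrays, and 10.77, 10.52, 10.64 and 10.47 on the SED arrays. The groups overlapped throughout, and the SED arrays spanned both the highest and the lowest value. The 95% interval of its difference from SED was -0.22 to 0.17 for EX and -0.22 to 0.17 for PA. Itgav, whose product pairs with several beta chains to bind vitronectin and osteopontin, read 11.93, 11.79, 11.86 and 11.95 on the EX arrays, 11.75, 11.88, 11.83 and 11.95 on the PA arrays, and 11.99, 11.90, 11.85 and 12.02 on the SED arrays. Its differences from SED were -0.058 for EX (95% interval -0.24 to 0.12) and -0.088 for PA (-0.27 to 0.093), with overlapping arrays. A second tested probe set of Itgb1 gave 0.18 for EX and 0.13 for PA, and 0.12 and 0.065 without SED 1. One of Itgav gave 0.17 and -0.17 with SED arrays between 4.21 and 6.46, the last of them SED 1, and without that array 0.54 and 0.20.

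Itgb3, the beta chain of the vitronectin receptor and of the platelet fibrinogen receptor, read 8.33, 7.94, 8.10 and 8.04 on the EX arrays, 7.93, 7.92, 7.98 and 8.10 on the PA arrays, and 7.61, 7.61, 8.19 and 7.58 on the SED arrays. Among the SED arrays SED 3 was the exception, above all but one of the EX arrays, while the other SED arrays lay below every EX and PA array. The difference from SED was 0.36 ± 0.14 for EX (SE; limma adjusted p = 0.257) and 0.24 ± 0.14 for PA (adjusted p = 0.437). Without SED 3 it was 0.50 for EX (adjusted p = 0.0881) and 0.38 for PA (adjusted p = 0.141). The 2 tested platelet markers averaged 6.70 to 6.96 on the EX arrays, 6.68 to 6.91 on the PA arrays and 6.77 to 7.01 on the SED arrays, with SED 3 the highest array, and their part in the Itgb3 value of SED 3 was not tested.

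Itgb5, which pairs with alpha v, read 9.98, 10.15, 9.83 and 9.98 on the EX arrays, 9.89, 9.88, 10.01 and 10.26 on the PA arrays, and 9.84, 9.97, 9.80 and 9.67 on the SED arrays. The groups overlapped, and the difference from SED was 0.17 ± 0.11 for EX (SE; limma adjusted p = 0.502) and 0.19 ± 0.11 for PA (adjusted p = 0.43). A second tested probe set gave 0.078 for EX and -0.11 for PA.

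The laminin receptors of heart muscle showed differences near 0 on their representative probe sets. Itga7, the main laminin-binding alpha chain of striated muscle, read 8.81, 8.89, 9.07 and 8.90 on the EX arrays, 8.87, 9.17, 9.04 and 8.95 on the PA arrays, and 8.90, 8.96, 8.71 and 8.90 on the SED arrays. Its differences from SED were 0.05 for EX (95% interval -0.16 to 0.26) and 0.14 for PA (-0.074 to 0.35), with overlapping groups. Itga6, the laminin-binding alpha chain of endothelium and epithelium, read 11.41, 11.43, 11.41 and 11.43 on the EX arrays, 11.35, 11.42, 11.41 and 11.48 on the PA arrays, and 11.50, 11.33, 11.31 and 11.47 on the SED arrays. The EX arrays lay inside the SED range, and the differences were 0.018 for EX (95% interval -0.15 to 0.19) and 0.013 for PA (-0.16 to 0.18).

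Itga3, a further laminin-binding alpha chain best known in epithelium, read 5.79, 5.18, 5.79 and 5.90 on the EX arrays, 5.98, 6.08, 5.69 and 6.30 on the PA arrays, and 5.41, 6.14, 5.68 and 6.10 on the SED arrays. EX 2 was the lowest and PA 4 the highest, and all 3 groups overlapped. Its difference was -0.17 ± 0.20 for EX against SED (SE; limma adjusted p = 0.723), 0.18 ± 0.20 for PA against SED (adjusted p = 0.685) and -0.35 ± 0.20 for EX against PA (adjusted p = 1). Without SED 1 the differences from SED were -0.31 for EX and 0.039 for PA, and without SED 1 and SED 3 that of PA was -0.11. Itgb4, the partner of alpha 6 in epithelial hemidesmosomes, was under the filter and is given with the other genes below it.

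Some other probe sets of the same genes gave different values. For Itga7, the second tested probe set read 7.33, 7.35, 7.19 and 6.94 on the EX arrays, 7.13, 7.42, 7.42 and 7.14 on the PA arrays, and 6.45, 7.01, 6.81 and 6.87 on the SED arrays, a difference of 0.42 ± 0.14 for EX (SE; limma adjusted p = 0.195) and 0.49 ± 0.14 for PA (adjusted p = 0.195). All PA arrays lay above all SED arrays there, and EX 4 fell within the SED range. For Itga6, the second read 7.24, 7.23, 7.65 and 7.63 on the EX arrays, 7.59, 7.59, 7.59 and 7.75 on the PA arrays, and 6.51, 7.18, 7.34 and 7.13 on the SED arrays, a difference of 0.40 ± 0.17 for EX (adjusted p = 0.291) and 0.59 ± 0.17 for PA (adjusted p = 0.2). The PA arrays again lay wholly above SED, and the EX arrays did not. Of the further tested probe sets of Itga6, 1 gave -0.0475 for EX and -0.075 for PA, near the representative one, and another 0.24 and 0.09. For Lamc1, the second gave 0.34 ± 0.14 for EX (adjusted p = 0.269) and 0.37 ± 0.14 for PA (adjusted p = 0.262), against -0.01 and -0.035 on the representative one.

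SED 1 was the lowest array on the second probe sets of Itga7, Itga6 and Lamc1. Without it the differences of EX and PA from SED were 0.31 and 0.38 for Itga7, 0.22 and 0.41 for Itga6, and 0.27 and 0.30 for Lamc1. Whether the probe sets of a gene differ from each other was not tested, and nor was the part of the RNA quality of SED 1 in these values. Of the 25 tested genes, 6 had several tested probe sets.

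**Figure D2:**
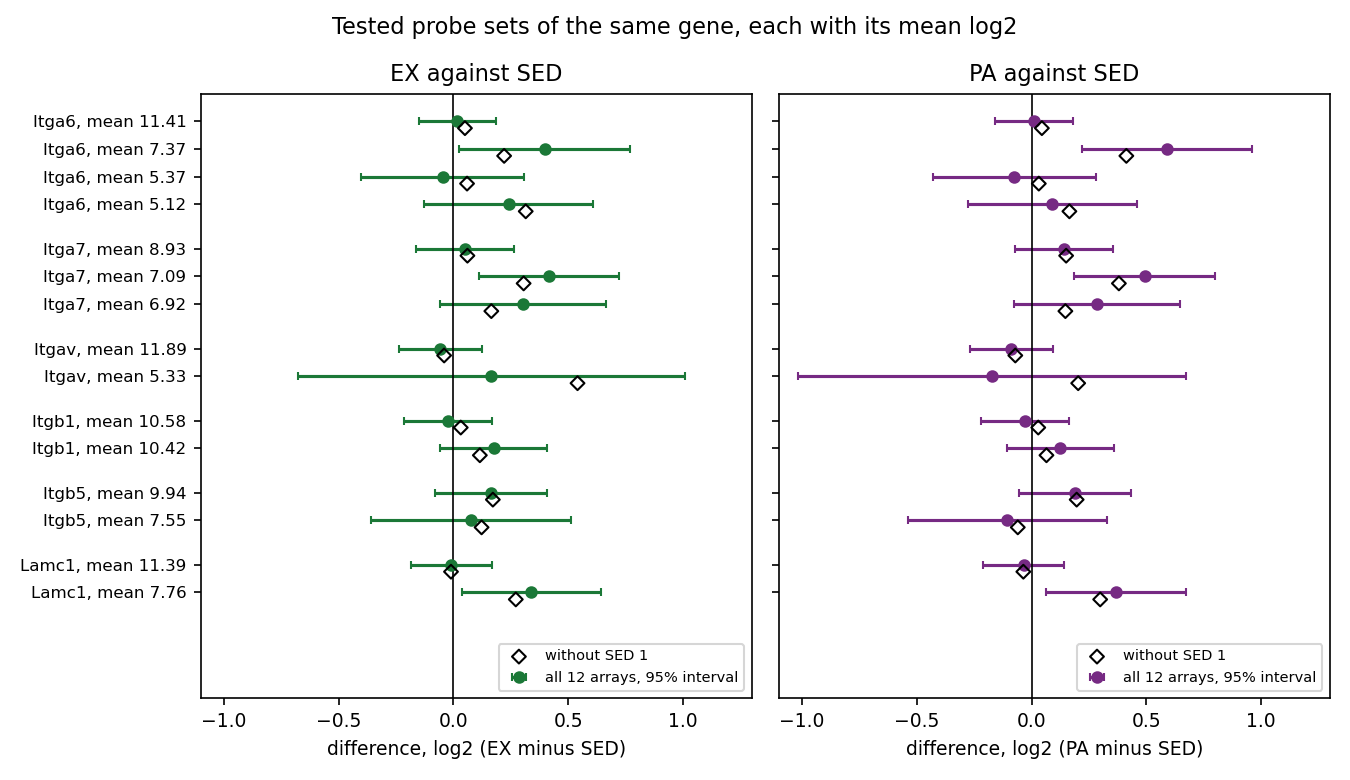
Difference from SED on the log2 scale (horizontal axis; left EX, right PA) for each tested probe set of the 6 genes with several, with 95% intervals over all 12 arrays and, as open diamonds, the value without SED 1. The representative probe set, the first of each gene, lies within 0.2 of 0 for each gene, while second probe sets of Itga6, Itga7 and Lamc1 lie between 0.34 and 0.59.

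Of the laminin chains, Lama2, Lamb1 and Lamc1 had differences from SED near 0 on their representative probe sets. Lama2, the alpha chain of the cardiomyocyte basement membrane, read 10.18, 9.98, 10.20 and 10.19 on the EX arrays, 10.33, 10.21, 9.98 and 10.21 on the PA arrays, and 9.77, 10.43, 10.26 and 10.30 on the SED arrays. Its arrays overlapped, with SED 1 the lowest, and the difference from SED was -0.053 for EX (95% interval -0.35 to 0.25) and -0.0075 for PA (-0.31 to 0.29). Without SED 1 it was -0.19 for EX and -0.15 for PA (limma adjusted p = 0.435 and 0.599).

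Lamb1, a beta chain of muscle and vessel laminins, read 10.50, 10.34, 10.48 and 10.33 on the EX arrays, 10.49, 10.47, 10.30 and 10.38 on the PA arrays, and 10.26, 10.42, 10.58 and 10.41 on the SED arrays. The SED arrays held both the highest and the lowest value, and the differences from SED were -0.005 for EX (95% interval -0.21 to 0.20) and -0.0075 for PA (-0.21 to 0.20). Lamc1, the gamma chain of most laminins, read 11.35, 11.32, 11.49 and 11.41 on the EX arrays, 11.34, 11.31, 11.30 and 11.52 on the PA arrays, and 11.40, 11.38, 11.42 and 11.41 on the SED arrays. Its differences from SED were -0.01 for EX (95% interval -0.19 to 0.17) and -0.035 for PA (-0.21 to 0.14), and the narrow SED range lay inside that of both other groups.

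Lama4, the alpha chain of endothelial basement membrane, read 8.89, 8.62, 8.98 and 8.89 on the EX arrays, 9.03, 8.94, 8.59 and 8.91 on the PA arrays, and 7.74, 8.87, 8.76 and 8.91 on the SED arrays. SED 1 lay far below all others, and the rest overlapped. The difference of 0.28 for EX and 0.30 for PA (limma adjusted p = 0.583 and 0.534) became -0.0017 and 0.021 without it.

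Lama5, the other endothelial alpha chain, showed the opposite on the same array. It read 6.29, 6.63, 6.80 and 6.92 on the EX arrays, 6.86, 6.89, 6.92 and 6.96 on the PA arrays, and 7.79, 6.80, 7.10 and 6.82 on the SED arrays, with SED 1 the highest. The difference from SED was -0.47 ± 0.20 for EX (SE; limma adjusted p = 0.298) and -0.22 ± 0.20 for PA (adjusted p = 0.607), and without SED 1 it was -0.25 and 0.0008. The 5 tested endothelial markers averaged 9.95 to 10.18 on the EX arrays, 10.05 to 10.13 on the PA arrays and 9.96 to 10.47 on the SED arrays, with SED 1 the highest array; their part in the Lama4 and Lama5 values was not tested.

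Lamb2, a beta chain known best from the neuromuscular junction and the kidney filter, read 11.15, 10.98, 10.78 and 10.64 on the EX arrays, 10.83, 11.18, 10.85 and 10.87 on the PA arrays, and 11.29, 10.94, 11.29 and 10.98 on the SED arrays. The groups overlapped, with differences from SED of -0.24 ± 0.14 for EX (SE; limma adjusted p = 0.436) and -0.19 ± 0.14 for PA (adjusted p = 0.509). Without SED 1 they were -0.18 for EX and -0.14 for PA, and without SED 1 and SED 3 they were -0.073 and -0.028. Lamc3, a gamma chain known best from nerve, read 5.05, 5.01, 4.81 and 4.93 on the EX arrays, 4.90, 5.27, 5.09 and 5.29 on the PA arrays, and 5.42, 5.23, 5.08 and 5.06 on the SED arrays. All EX arrays lay below all SED arrays by a margin of 0.01 at the closest, and the PA arrays spanned both. The difference was -0.25 ± 0.12 for EX against SED (limma adjusted p = 0.333) and -0.19 ± 0.12 for EX against PA (adjusted p = 1), at a level close to the filter.

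**Figure D3:**
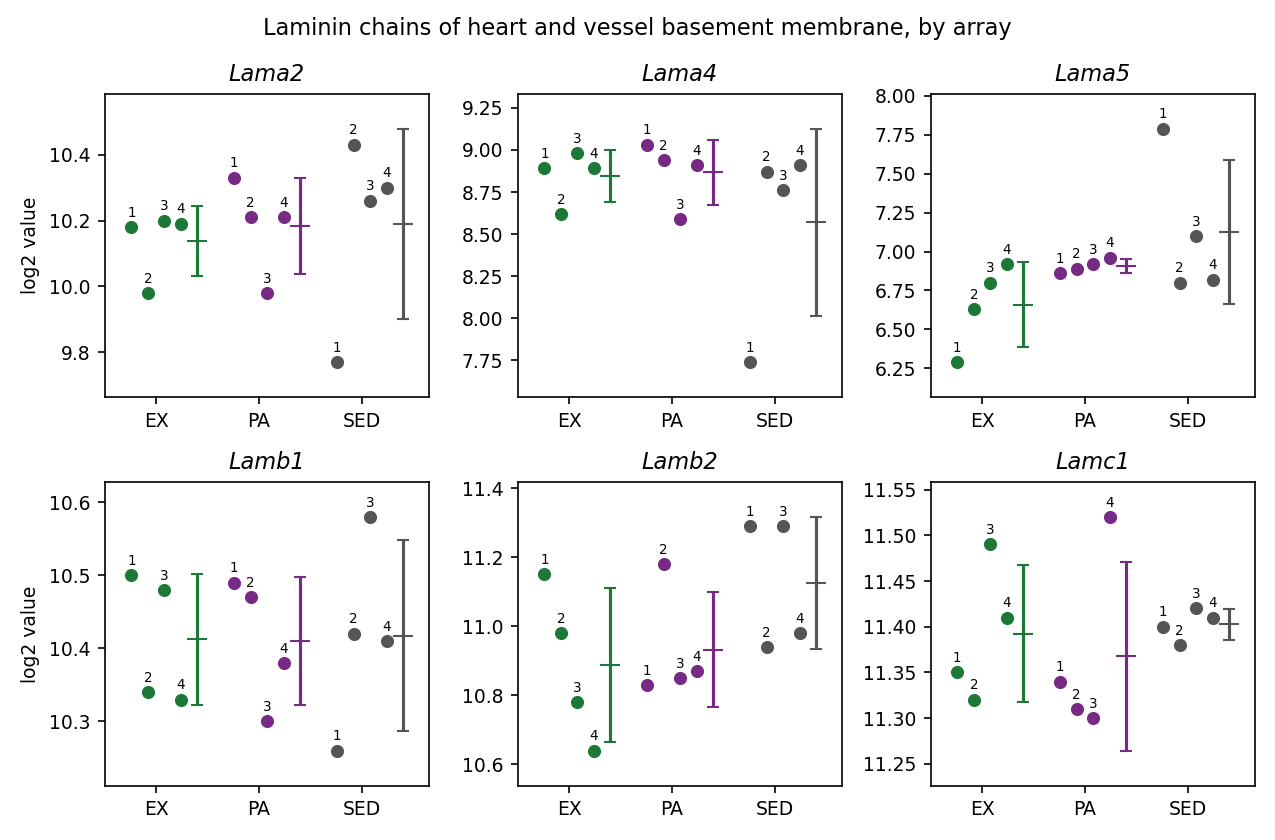
Log2 values by array (numbered points, left to right EX, PA and SED) for the 6 main laminin chains of heart and vessel basement membrane, with a cross bar at the mean and bars of 1 SD; each panel has its own axis. The groups overlap in every panel, and SED 1 is the lowest array for Lama2, Lama4 and Lamb1 and the highest for Lama5.

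Of the leukocyte integrins, 3 were tested, and in EX against SED the means of Itgb2 and Itgal were lower and that of Itgax higher. Itgb2, the beta chain with which the others pair, read 6.06, 6.11, 5.86 and 5.77 on the EX arrays, 6.32, 6.17, 6.12 and 6.75 on the PA arrays, and 6.72, 6.64, 6.80 and 5.71 on the SED arrays. All EX arrays lay below all PA arrays, by 0.01 at the closest, and below all SED arrays but SED 4, which was the lowest of the 12. The difference was -0.52 ± 0.23 for EX against SED (SE; limma adjusted p = 0.3), -0.13 ± 0.23 for PA against SED (adjusted p = 0.809) and -0.39 ± 0.23 for EX against PA (adjusted p = 1).

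Itgal, the alpha chain of the lymphocyte receptor for ICAM-1, read 7.11, 6.78, 7.26 and 6.75 on the EX arrays, 7.72, 7.15, 6.65 and 7.50 on the PA arrays, and 7.15, 7.58, 7.89 and 6.85 on the SED arrays. The groups overlapped, with differences from SED of -0.39 ± 0.26 for EX (SE; limma adjusted p = 0.488) and -0.11 ± 0.26 for PA (adjusted p = 0.859). Itgax, the alpha chain known from dendritic cells and some macrophages, read 5.56, 6.30, 6.10 and 5.27 on the EX arrays, 6.15, 5.46, 4.88 and 5.25 on the PA arrays, and 4.32, 5.55, 5.42 and 6.38 on the SED arrays. The SED arrays alone spanned about 2 log2 units and held both ends of the range. The difference of 0.39 for EX (limma adjusted p = 0.664) was within that spread, and it was 0.024 without SED 1. For PA the difference was 0.0175, and without SED 1 it was -0.35. Itgam, the alpha chain of monocytes and neutrophils, was under the filter and read 3.14, 2.96, 2.92 and 2.90 on the EX arrays, 2.88, 2.75, 2.94 and 2.97 on the PA arrays, and 3.09, 2.93, 2.83 and 3.26 on the SED arrays.

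The 10 leukocyte markers, all tested, averaged 7.47 to 7.65 on the EX arrays, 7.44 to 7.96 on the PA arrays and 7.31 to 8.31 on the SED arrays. SED 3 was the highest array, 0.64 above the mean of all arrays, and SED 1 the lowest at -0.36; Itgal and Itgb2 were also highest on SED 3, but SED 1 held the second highest SED value of Itgb2. The 3 tested neutrophil markers averaged 5.01 to 6.43 on the EX arrays, 5.46 to 6.63 on the PA arrays and 5.26 to 7.46 on the SED arrays, again with SED 3 the highest. Without SED 3 the difference of Itgb2 from SED was -0.41 for EX and -0.017 for PA, and without SED 4 it was -0.77 and -0.38 (limma adjusted p = 0.18 and 0.286). Leaving out each array in turn, that of Itgal ran from -0.57 to -0.22 for EX and from -0.29 to 0.089 for PA. Without SED 1 and SED 3 together the EX differences were -0.23 for Itgb2 and -0.24 for Itgal, and the PA differences were 0.165 and 0.04. The part of the number of leukocytes in these values was not tested.

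**Figure D4:**
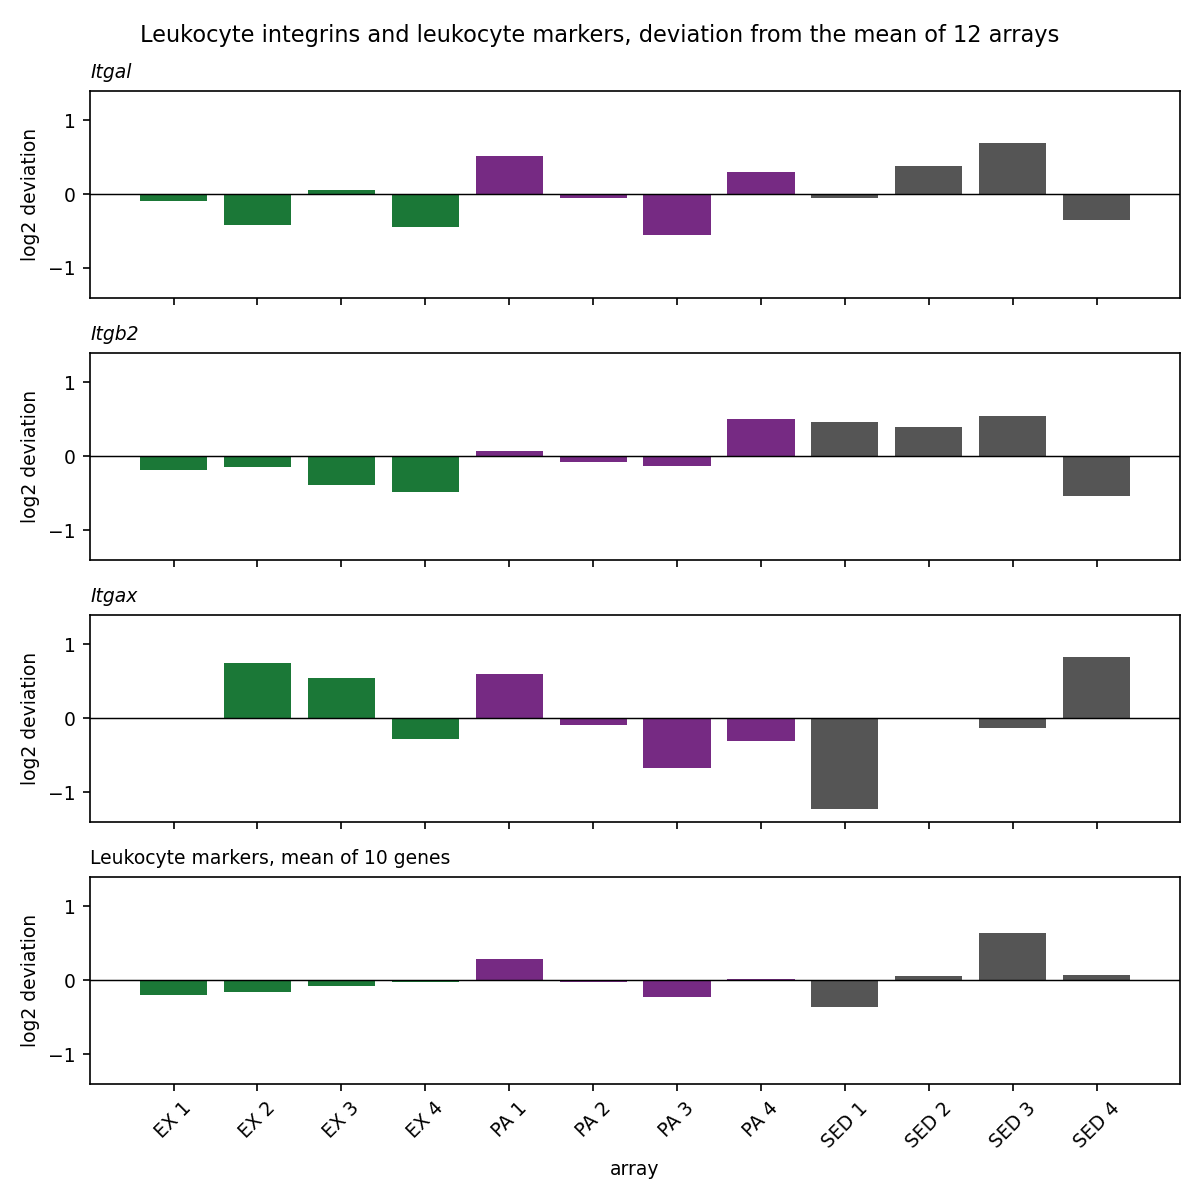
Deviation from the mean of 12 arrays on the log2 scale (bars from 0) for Itgal, Itgb2 and Itgax and for the mean of the 10 leukocyte markers, array by array from EX to PA to SED. The markers and Itgal peak on SED 3 and Itgb2 is below its mean on all EX arrays, on PA 2 and PA 3 and on SED 4, while Itgax follows a different order.

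The other integrin chains known mainly from blood cells that were tested are Itga2b, Itgad and Itgae. Itga2b, the alpha chain of the platelet fibrinogen receptor, read 6.51, 6.26, 6.19 and 6.49 on the EX arrays, 6.16, 6.21, 6.08 and 5.88 on the PA arrays, and 6.69, 6.15, 6.54 and 6.24 on the SED arrays. PA 4 was the lowest array and the groups overlapped. The difference was -0.32 ± 0.14 for PA against SED (SE; limma adjusted p = 0.297), -0.043 ± 0.14 for EX against SED (adjusted p = 0.902) and 0.28 ± 0.14 for EX against PA (adjusted p = 1), the smallest p of any member in that last comparison. Without SED 1 the value for EX against SED was 0.053 and that for PA against SED was -0.23.

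Itgad, a partner of the beta 2 chain on macrophages, read 5.23, 5.30, 5.28 and 5.12 on the EX arrays, 4.75, 5.23, 5.27 and 5.10 on the PA arrays, and 5.56, 5.49, 5.23 and 5.52 on the SED arrays. SED 3 lay among the EX and PA values and the other SED arrays above them. The difference from SED was -0.22 ± 0.12 for EX (SE; limma adjusted p = 0.427) and -0.36 ± 0.12 for PA (adjusted p = 0.229). Itgae, the alpha chain of lymphocytes within epithelia, lay between 7.08 and 7.78 over all arrays, with differences of -0.21 for EX and -0.078 for PA, and of -0.14 and -0.0033 without SED 1.

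Itgbl1 read 9.03, 9.05, 9.19 and 9.26 on the EX arrays, 9.01, 8.62, 9.18 and 9.09 on the PA arrays, and 8.92, 8.83, 9.01 and 8.66 on the SED arrays. The EX arrays all lay above the SED arrays, by 0.02 at the closest, and the PA arrays spanned both. Its difference was 0.28 ± 0.13 for EX against SED (SE; limma adjusted p = 0.325) and 0.16 ± 0.13 for EX against PA (adjusted p = 1).

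The 8 genes under the filter were Itga11, Itgam, Itgb4, Itgb6, Itgb7, Lama1, Lama3 and Lamb3. In the table as a whole, dim probe sets ran lower in the active groups: of the 12416 under the filter, 75.3% were lower in EX than in SED and 79.1% lower in PA, against 39.9% and 38.7% of those tested. All SED arrays also had a narrower interquartile range than the EX and PA arrays. A difference in the scale of the arrays and one in expression cannot be told apart in these shares. The 8 genes had 7 lower in EX and 7 lower in PA, with median differences of -0.22 and -0.22, beside medians of -0.14 and -0.15 over all probe sets under the filter. Itgb4 read 4.77, 4.68, 4.35 and 4.81 on the EX arrays, 4.72, 4.43, 4.55 and 4.39 on the PA arrays, and 5.24, 4.86, 4.99 and 4.87 on the SED arrays. Both active groups lay wholly below SED, with differences of -0.34 for EX (limma adjusted p = 0.21 in a fit of all probe sets) and -0.47 for PA (adjusted p = 0.161), where 9.91% and 11.9% of all probe sets under the filter did the same. Itgb6, the beta chain of epithelial alpha v beta 6, was the gene higher in both, with differences of 0.098 and 0.44. Lama1 and Lamb3 were highest on SED 1, at 5.63 and 6.25.

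In EX against SED, 10 of the 25 tested genes were higher and 15 lower; their median difference was -0.025, beside 57% higher and a median of 0.033 over all 10244 tested genes. The 14 other integrins had 7 higher and 7 lower (median -0.0038), and the 7 laminins had 1 higher, Lama4, and 6 lower (median -0.053). Among the 14 are Itga2b, Itgad and Itgae, known mainly from blood cells. With all arrays each of these was lower in EX and in PA than in SED (medians -0.21 and -0.32). Without SED 1 the laminin median was -0.17, with Lama4 at -0.0017, and that of the other integrins 0.051. In PA against SED, 11 members were higher and 14 lower (median -0.0075, beside 59.9% higher and a median of 0.048 over all genes), the other integrins had 8 higher and 6 lower (median 0.076), and the laminins had 1 higher, again Lama4, and 6 lower (median -0.035). The 3 tested leukocyte integrins had medians of -0.39 in EX against SED, -0.11 in PA against SED and -0.28 in EX against PA, with 1 higher and 2 lower in each. The 1 higher in PA against SED was Itgax, at 0.0175. Without SED 1 all 3 were lower there, with Itgax at -0.35, Itgal at -0.185 and Itgb2 at -0.043. Without SED 1 and SED 3 together, Itgb2 was at 0.165 and Itgal at 0.04, both higher, and Itgax at -0.53. In EX against PA, 11 members were higher and 14 lower, with a median of -0.025 beside -0.018 over all genes. These counts carry no test of the list.

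**Figure D5:**
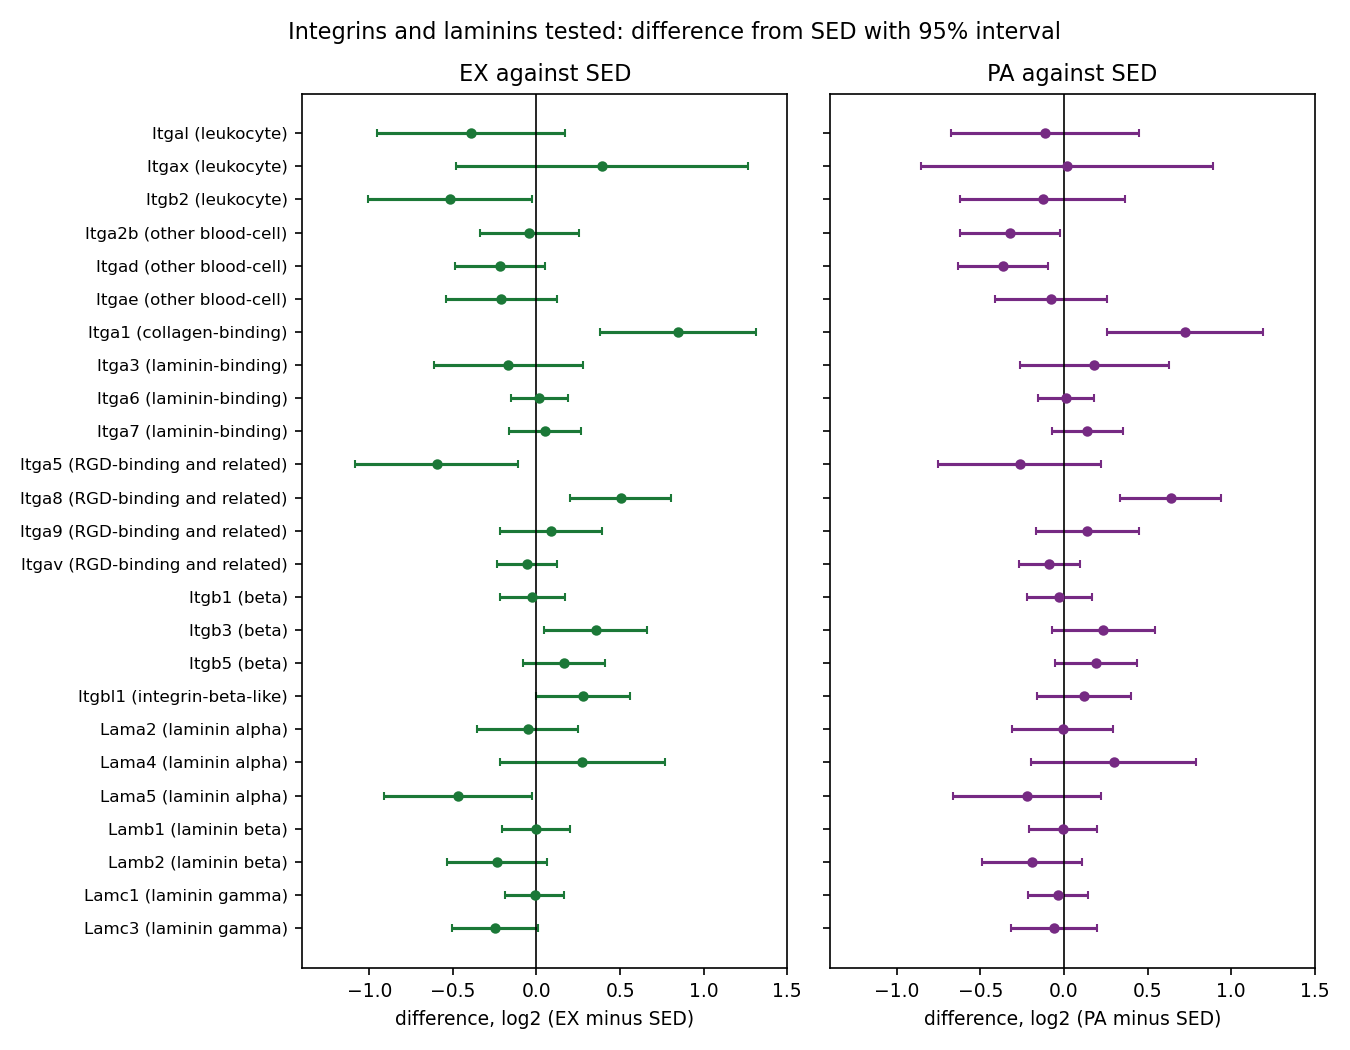
Difference from SED on the log2 scale with its 95% interval (horizontal bars) for the representative probe set of each of the 25 tested genes, with EX on the left and PA on the right. Most intervals cross 0. Those of Itga1 and Itga8 lie above 0 in both panels, and that of Itgb3 in EX. Those of Itga5, Itgb2 and Lama5 lie below 0 in EX, and those of Itga2b and Itgad in PA. Itga8 passed the filter only through EX and PA. These are single-gene intervals with no adjustment for the number of genes.

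The other genes of cell-matrix adhesion gave the same count of calls. Of 43 listed, 37 were on the array and 32 were tested, and 0 passed in either direction in any comparison with limma. In EX against SED 23 were higher and 9 lower (median 0.068), beside 57% higher over all tested genes. In PA against SED 25 were higher and 7 lower (median 0.093), beside 59.9% higher. In EX against PA 13 were higher and 19 lower (median -0.053), beside 44.3% higher. The differences of this list were not recomputed without SED 1. The 5 tested genes of the dystrophin-glycoprotein complex, the second laminin receptor of muscle, were all higher in EX than in SED (median 0.18) and all higher in PA than in SED (median 0.14), and 0 of them passed. Dag1, which encodes dystroglycan, averaged 11.37 in EX and 11.19 in SED (difference 0.18, limma adjusted p = 0.419).

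Among the adaptors at the integrin tail, Itgb1bp1, an inhibitor of beta 1 activation, averaged 7.21 in EX, 7.09 in PA and 6.48 in SED. Its differences from SED were 0.73 for EX and 0.61 for PA (limma adjusted p = 0.3 and 0.38). Tln2, the talin of mature muscle, averaged 6.93 in EX, 7.02 in PA and 6.75 in SED, with differences of 0.19 and 0.27 (adjusted p = 0.468 and 0.303). Itgb1bp2, the muscle chaperone melusin, averaged 9.98 in PA and 9.77 in SED (difference 0.21, adjusted p = 0.368). Among the ligands, Fn1, fibronectin, averaged 6.51 in EX, 6.17 in PA and 6.05 in SED (0.46 for EX against SED, adjusted p = 0.364). Nid2, the basement membrane linker nidogen, averaged 6.87 in EX, 7.25 in PA and 6.59 in SED (0.67 for PA against SED, adjusted p = 0.278). In EX against PA, the smallest p of the list belonged to Vcl, vinculin, at -0.14, Fn1 at 0.34, Spp1, osteopontin, at 0.31 and Nid2 at -0.39, each with an adjusted p of 1.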

How the data were processed

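RNA of the left ventricle was measured on 12 Affymetrix rat GeneChip arrays, 4 in each of the groups EX, PA and SED, which were taken from titles and descriptions. The authors deposited 1 table of log2 values for 31099 rows. Both MAS5 and RMA stand in the submitters' processing notes, with no word on which was used here, so the background correction and normalization are not known. The values were taken unchanged, as log2 by their range, because no 2 array medians were more than 0.2 apart. This left the narrower interquartile range of the SED arrays as it was. The 57 control rows were left out. Symbols came from the platform annotation: 20826 probe sets had 1 symbol, 436 several and 9780 none, and all 49 member symbols were unchanged when looked up by gene ID.

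The test used limma (version 3.58.1, R 4.3.3) on the 18626 probe sets whose mean was at least 4.94, the upper 60%, with 3 group means, 12 arrays and 9 residual degrees of freedom, two-sided, with Benjamini-Hochberg adjustment over all of them and a threshold of 0.05. Of several tested probe sets, the one with the highest mean stands for the gene. The script was tested on simulated data. Members, lists and tests were chosen with earlier results of these data known. Values by array are given for a fixed set of 18 integrins and laminins, and for the 6 members with the smallest p per comparison. Other probe sets are named where they depart from their gene's representative one by more than 0.5, or in sign with both beyond 0.2. Those of Itga7, Itga9, Lamc1, Itgb1, Itgav and Itgb5 and the further ones of Itga6 were chosen after their values were seen. So was Itgb4 among the genes under the filter. Of the adhesion list, the 4 genes with the smallest p in each comparison are named. Arrays carry no read depth, and their number limits the precision. The replicate numbers in the titles do not pair the arrays. The alternatives are given after the report.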

Additional observations from a re-analysis of the deposited data

Results flagged for a closer look

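In 8 of 75 groups of 4 arrays, 1 array lay far from the other 3 of its group by Dixon's ratio, where chance alone gives about 1 in 20. For Itga1, PA 2 read 8.08, against 8.47 to 8.51 on the other PA arrays. For Itga3, EX 2 read 5.18, against 5.79 to 5.90 on the other EX arrays. For Itga8, SED 1 read 4.49, against 4.62 to 4.64 on the other SED arrays, a gap small in absolute terms. For Itgb2, SED 4 read 5.71, against 6.64 to 6.80. For Itgb3, SED 3 read 8.19, against 7.58 to 7.61. For Lama2, EX 2 read 9.98, against 10.18 to 10.20. For Lama4, SED 1 read 7.74, against 8.76 to 8.91. For Lamb2, PA 2 read 11.18, against 10.83 to 10.87.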

How the results depend on the processing

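No integrin or laminin was called under any of the 25 settings tried. The adjusted p values of members under 0.1 were all in EX against SED: 0.0801 for Itga8 and 0.0854 for Itga1 with array weights, which gave SED 1 a weight of 0.147, and 0.0881 for Itgb3 without SED 3. Of 2493 recomputed differences of single probe sets, 2471 moved by less than 1 SD and 22 by more; 125 uncalled values changed sign, 8 of them over 0.2 in size. Of 399 recomputed counts and medians, 12 moved by more than 1 SD. In PA against SED, the median of the other integrins was 0.0115 after quantile normalization and 0.0032 after cyclic loess, and that of all members -0.0777 after cyclic loess. In EX against SED, the laminin median was -0.1155 after cyclic loess and -0.1743 with array weights, that of the other integrins 0.0533 with array weights and 0.0813 when each gene's probe sets were averaged, and that of all members 0.0538 when averaged. Leaving out 1 array at a time, the laminin median ran from -0.1733 (without SED 1) to 0 in EX against SED and from -0.1125 (without PA 3) to 0.0075 in EX against PA, and that of the other integrins from -0.0408 to 0.0512 (without SED 1) in EX against SED and from 0.0183 (without SED 4) to 0.0813 in PA against SED. The causes of these shifts were not tested. Same-numbered arrays of different groups correlated at -0.209 to 0.134 and differently numbered ones at -0.214 to 0.224. These ranges overlap and show no pairing by number, but so few arrays cannot exclude it. With the replicate block in the limma fit 0 members were called, and the smallest adjusted p was 0.204 in EX against SED.

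The 4 arrays per group, the pooling of animals and the unknown processing limit what can be read from these values. Probe sets near the filter, such as Itga8 and Lamc3, have little signal over background.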
